A study of Mus musculus with 20 samples.

Results

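The genes described here are 30 enzymes and partner proteins of histone acetylation, chosen by name: 11 zinc-dependent histone deacetylases (Hdac1 to Hdac11), 7 sirtuins (Sirt1 to Sirt7), 6 acetyltransferases (Ep300, Crebbp, Kat2a, Kat2b, Kat5 and Kat8), 4 corepressors (Ncor1, Rcor1, Sin3a and Sin3b) and 2 bromodomain readers (Brd2 and Brd3). All 30 were found among the 23413 gene names of the count tables, and all were among the 15660 genes that were expressed highly enough to test. RNA was measured in the cortex of 20 mice aged 22 months. The mice carried a humanized APOE4 allele in place of mouse Apoe (APOE4 knock-in, on a B6(SJL) background), in the control groups too, so that no group with another APOE allele was compared. From the age of 10 months they were fed a control diet (CD) or a ketogenic diet (KD), rich in fat and poor in carbohydrate, which makes the liver release the ketone body beta-hydroxybutyrate (BHB), for 12 months. There were 5 females on the CD and 4 on the KD, and 5 males on the CD and 6 on the KD, with 1 library per mouse, and each mouse is given by its animal number. The comparisons ask whether the RNA of these genes differed between the diets in each sex, whether the diet difference differed between the sexes, and whether females differed from males.

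Acetylation of lysines in the histone tails loosens chromatin and is written by acetyltransferases, read by bromodomain proteins and erased by deacetylases. The zinc-dependent deacetylases fall into class I, which works mainly in the nucleus within corepressor complexes, class IIa, which shuttles between nucleus and cytoplasm with neuronal activity, class IIb and class IV, whereas sirtuins use NAD and link deacetylation to metabolic state. BHB inhibits class I deacetylases directly, an action on the enzyme that need not change its RNA, and acetyl-CoA made in energy metabolism is the substrate of the acetyltransferases.

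The 20 libraries held 12207161 to 29109990 counts. By their library numbers they fall into 2 series of 10, with mice of every group in both, and series 1 held more counts (21015275 to 29109990) than series 2 (12207161 to 17697342). Some libraries stood apart in markers of a neighbouring tissue. The summed level of 14 markers of striatal spiny neurons was 2590 to 3281 CPM (counts at a common library depth) in KD females E61, E68 and E207 and 3816 CPM in KD male E59, against 1208 CPM in CD female E249 and at most 654 CPM in the other 15 mice. The 10 markers of cortical excitatory neurons summed to 752 to 908 CPM in E249, E61, E68 and E207 and to 1312 to 1920 CPM in the others, so cortical identity was present in every library but weaker in those 4. KD male E59 also held 2385 CPM of 8 choroid plexus markers, against at most 67 CPM in the other mice. KD males E64 and E254 had the lowest sums of oligodendrocyte markers, 1530 and 1741 CPM, against at least 2779 CPM in the other mice. In such bulk tissue, fewer cells of a type and less RNA per cell cannot be told apart, and the part of tissue composition in the values below was not tested except where a value without a library, or with a marker score in the model, is given.

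Levels of different genes were compared per length, as counts per kilobase of annotated exon scaled so that each library has the same sum over all genes (the level per length, in the manner of TPM). Hdac11, the only class IV enzyme, had the highest mean level per length of the 30, at 185 ± 35.5 (SD, n = 20). It was followed by Ncor1, the scaffold that activates Hdac3, at 139 ± 14.8 (SD, n = 20), Hdac2 at 137 ± 19.7 (SD, n = 20) and Hdac3 at 106 ± 7.34 (SD, n = 20). Ncor1 and Hdac2 differed by less than either SD, and Hdac3 lay below both by more than any of the 3 SDs. Among all genes tested, Hdac11 was at the 92nd percentile of level per length, Ncor1 at the 88.7th and Hdac7 at the 19.5th.

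**Figure D1:**
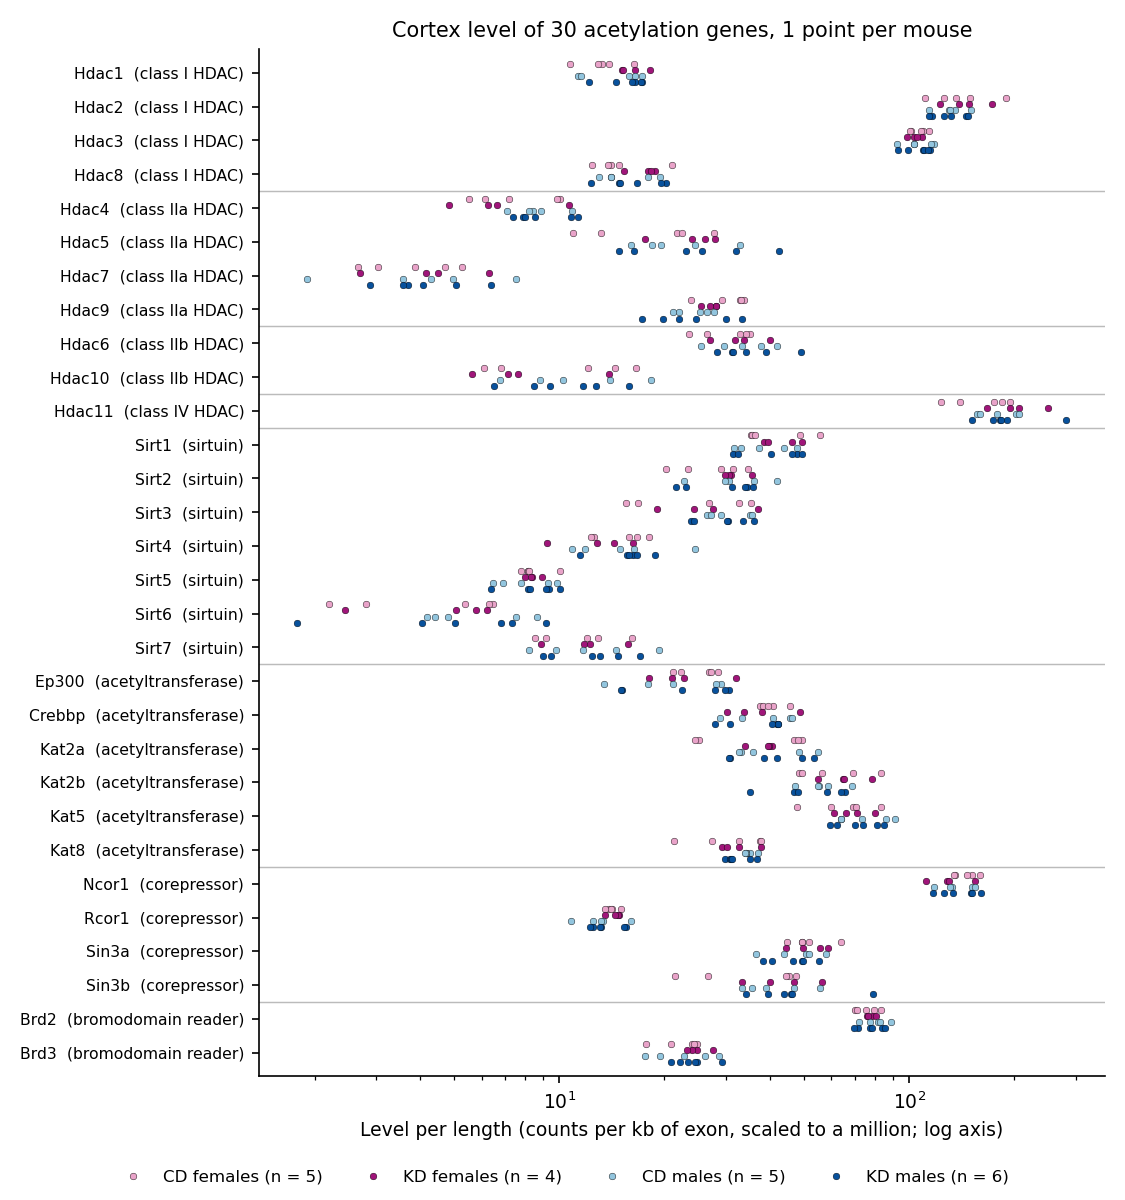
Level per length (counts per kilobase of exon at a fixed library sum, log axis) of each of the 30 genes, by class, with 1 point per mouse coloured by group. Hdac11, Ncor1, Hdac2 and Hdac3 sit above 90, Hdac7 and Sirt6 below 10 in every mouse, and the 4 groups overlap for every gene.

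Within class I, Hdac2 and Hdac3, the catalytic subunits of the Sin3, CoREST, NuRD and NCoR complexes together with Hdac1, were far above Hdac1 at 14.9 ± 2.26 and Hdac8 at 16.2 ± 2.75 (SD, n = 20 each). The class IIa enzymes, which have little catalytic activity of their own and bind MEF2 transcription factors, lay on both sides of Hdac1 and Hdac8 and below Hdac2 and Hdac3: Hdac9 at 26.5, Hdac5 at 22.9, Hdac4 at 8.23 and Hdac7 at 4.26, the lowest of the 30. In class IIb, the cytoplasmic tubulin deacetylase Hdac6 was at 33.3 and Hdac10, which acts on polyamines, at 10.7. The sirtuins ran from Sirt1, a nuclear enzyme, at 41.3, the myelin-enriched tubulin deacetylase Sirt2 at 30.3 and the mitochondrial Sirt3 at 28.3 down to Sirt4 at 15.1, Sirt7 at 12.3, Sirt5 at 8.38 and Sirt6 at 5.33.

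Of the acetyltransferases, Kat5, the catalytic subunit of the NuA4 complex, was highest at 70.9, followed by Kat2b at 58.6, Kat2a at 39.9, the CREB-binding protein Crebbp at 38.7, Kat8, which acetylates lysine 16 of histone H4, at 32.8, and the Crebbp paralog Ep300 at 23.5. Of the Sin3 scaffolds, Sin3a was at 49.4 and Sin3b at 43.1, and the CoREST scaffold Rcor1 was at 13.8. The bromodomain proteins Brd2 and Brd3, which bind acetylated histones, were at 77.9 and 23.5. Exons of 8 of the 30 genes overlap those of another counted gene (Hdac7 with Slc48a1, Sirt2 with Nfkbib, Sirt3 with Psmd13, Sirt7 with Mafg, Kat5 with Rnaseh2c, Kat8 with Prss8, Ncor1 with Ttc19 and Pigl, and Brd2 with H2-DMa). Mafg lies on the same strand as Sirt7, so that overlap remains whichever strand was counted. The other overlaps are with genes on the opposite strand. The strand that was counted is not given, so the values of those genes are uncertain to that extent.

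The spread between mice, once group and library series had been taken out, had a median SD of 0.22 on the log2 scale over the 30 genes, against 0.28 over all genes tested. Ncor1 (0.081), Brd2 (0.082) and Hdac3 (0.11) varied least, and Sirt6 (0.62), Hdac10 (0.55), Hdac7 (0.51) and Hdac5 (0.44) most. Counting error alone accounted for an SD of 0.20 in Sirt6 and 0.017 in Ncor1.

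The level per length was also summed over the genes of a class in each mouse. Class I deacetylases summed to 278 ± 34.5 in females on the CD (SD, n = 5) and 283 ± 23.8 on the KD (SD, n = 4), and to 269 ± 4.68 in males on the CD (SD, n = 5) and 269 ± 18.3 on the KD (SD, n = 6). The 6 acetyltransferases summed to 263 ± 20.3, 267 ± 7.84, 269 ± 12.4 and 259 ± 15.7 in the same order, and the 7 sirtuins to 135 ± 13.6, 141 ± 11.1, 144 ± 18.5 and 144 ± 13.9. In each of these 3 classes the difference between the diets was smaller than the SD of at least 1 of the groups compared, and the groups overlapped. The sum over the 11 zinc-dependent deacetylases was 544 ± 37.6 in females on the CD and 592 ± 46.6 on the KD (SD, n = 5 and 4), a difference larger than either SD, and in males 554 ± 38.2 and 572 ± 60.9 (SD, n = 5 and 6). Hdac11 alone, as class IV, made up most of it, at 163 ± 30.4 and 204 ± 34.3 in females. With the sirtuins added, the 18 deacetylases summed to 680 ± 48.4 and 733 ± 46.9 in females and to 698 ± 54.8 and 715 ± 68.6 in males. The sums of both diets overlapped in each sex, and no test was run on them.

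For comparisons between groups, counts were normalised by upper quartile and given as normalised CPM, and differences were tested by quasi-likelihood in edgeR, with p-values adjusted by Benjamini-Hochberg over the 15660 genes. A gene was called different at an adjusted p of at most 0.1 and a change of at least 1.5-fold. In females 0 of the 30 genes were called between KD and CD, where 0.0447% of all genes tested were. At an unadjusted p under 0.05 the count was 1 of 30, Ncor1, against 11.4% of all genes. DESeq2's Wald test also called 0 of the 30, where it called 1.62% of all genes. It gave an unadjusted p under 0.05 for Ncor1 alone, and its share of all genes under that p is not given here. By sign, 17 of the 30 were higher on the KD, against 52.7% of all genes, and the median log2 fold change was 0.0089, beside 0.013 over all genes. In none of the 30 genes were the KD females free of overlap with the CD females, where 1.12% of all genes were fully higher and 0.69% fully lower on the KD.

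In the model used, which had no term for tissue composition, the intervals limit how large a difference between the diet groups could have been. They do not bound a diet difference at equal tissue composition. For 23 of the 30 genes the 95% interval of the difference in females lay within a 1.5-fold change in either direction, against 52.3% of all genes tested. The 7 genes with wider intervals were Hdac10, Sirt4, Hdac5, Sin3b, Hdac4, Hdac7 and Sirt6. All 4 class I deacetylases were within that range: the fold change of KD over CD in females was 1.19 (95% interval 0.956 to 1.48) for Hdac1, 1.0 (0.818 to 1.22) for Hdac2, 0.946 (0.839 to 1.07) for Hdac3 and 1.17 (0.948 to 1.43) for Hdac8. So were all 6 acetyltransferases, with Crebbp at 0.916 (0.760 to 1.1) and Ep300 at 0.939 (0.755 to 1.17).

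**Figure D2:**
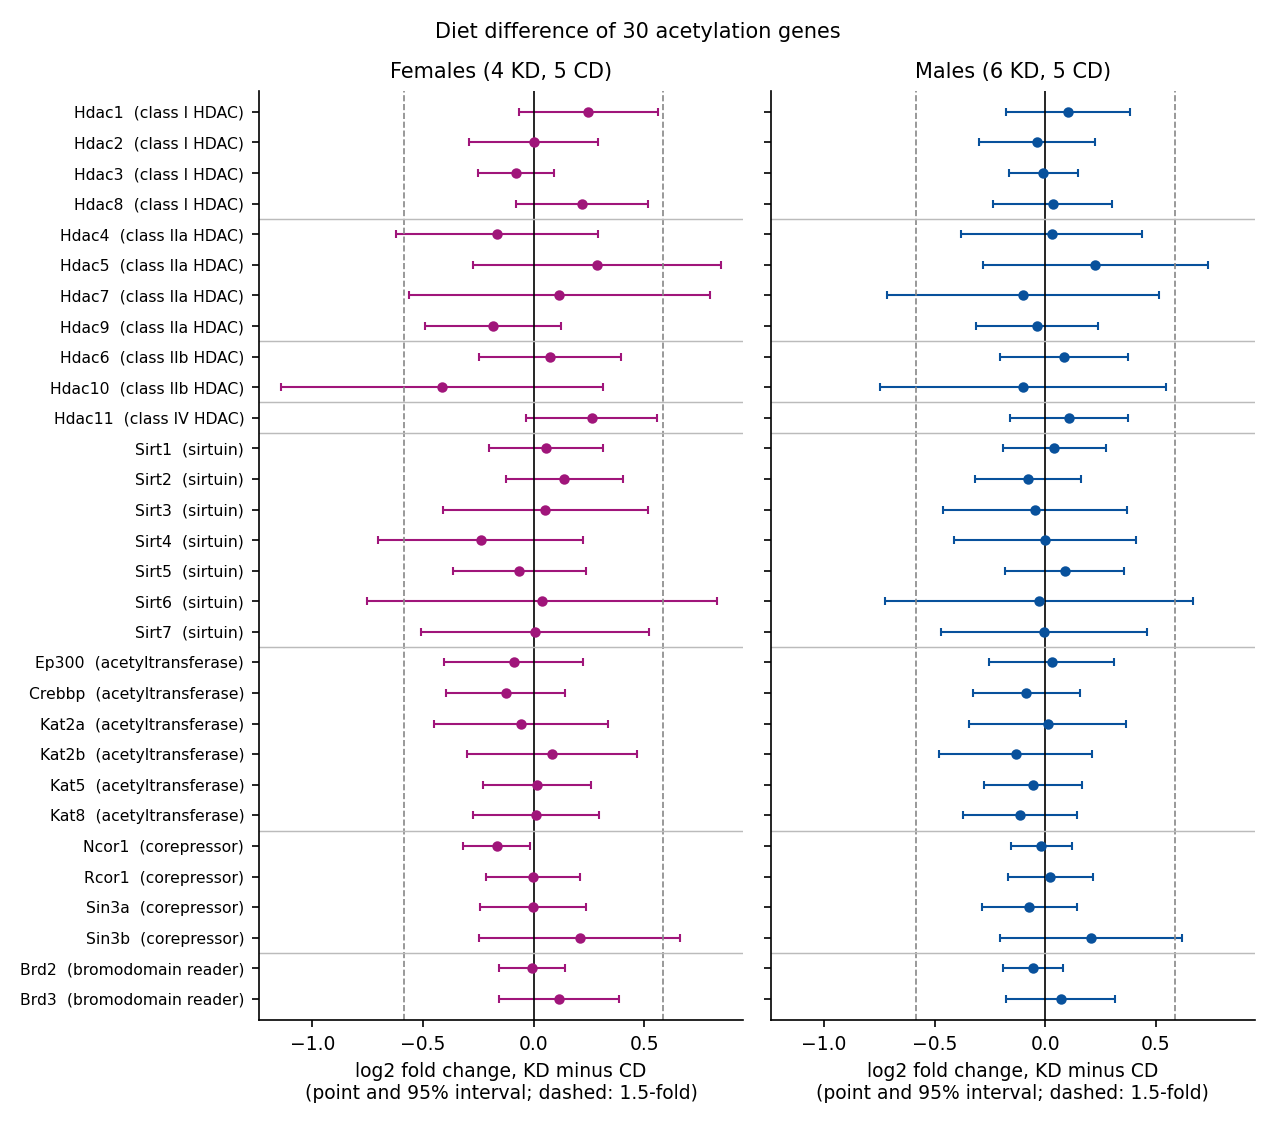
Log2 fold change of KD minus CD for each gene (points) with its 95% interval (bars) in females, left, and males, right; dashed lines mark a 1.5-fold change. The interval of 1 gene, Ncor1 in females, leaves out 0, and those of the other 29 genes in females and of all 30 in males include it.

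To show the start regions of the members nearest to a difference, RefSeq promoter windows of GRCm38.p6 were used, running from 250 bases before to 50 bases after the start annotated in RefSeq. For Ncor1 and Hdac11 these starts differ from the ends of the gene coordinates given below, which come from GENCODE vM21. Windows were found for 27 of the 30 genes, 40 in all, and Hdac1, Hdac3 and Hdac10 had none in the table used. The dinucleotide CG, which marks CpG islands and reads the same on both strands, occurred in 39 of the 40 windows (97.5%) and in 99.1% of the 14491 windows of the genes tested. The median was 19.5 CG per window for the 30 genes and 19 for the genes tested, and the count ranged from 0 (a window of Hdac9) to 49 (Crebbp). Below, 5′ to 3′ on the strand of the gene and with CG in capitals, are the window of Ncor1 (chr11:62457283-62457582, minus strand, 36 CG, the other of its 2 windows holding 2) and that of Hdac11 (chr6:91156565-91156864, plus strand, 22 CG), the genes of smallest p in females and averaged over the sexes.
Ncor1: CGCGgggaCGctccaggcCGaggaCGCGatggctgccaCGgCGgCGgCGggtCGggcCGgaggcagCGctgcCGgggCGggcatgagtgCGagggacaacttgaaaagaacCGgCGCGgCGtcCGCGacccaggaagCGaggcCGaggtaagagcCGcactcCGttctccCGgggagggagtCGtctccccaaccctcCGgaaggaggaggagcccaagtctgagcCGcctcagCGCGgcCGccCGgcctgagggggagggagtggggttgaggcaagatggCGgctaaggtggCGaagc
Hdac11: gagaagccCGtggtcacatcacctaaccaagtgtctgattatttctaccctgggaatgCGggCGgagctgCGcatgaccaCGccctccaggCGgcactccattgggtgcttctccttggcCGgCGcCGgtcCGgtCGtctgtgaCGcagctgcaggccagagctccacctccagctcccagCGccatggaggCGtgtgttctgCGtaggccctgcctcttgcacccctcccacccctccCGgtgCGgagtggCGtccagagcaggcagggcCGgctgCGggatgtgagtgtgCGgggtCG

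Ncor1 (chromosome 11 of GRCm38, 62316426 to 62458541, minus strand) encodes the corepressor that carries Hdac3 to nuclear receptors. In CD females it was at 340.1 (E62), 345 (E67), 370.3 (E228), 392 (E249) and 400.3 (E265) normalised CPM, and in KD females at 277 (E61), 321 (E68), 372 (E207) and 329 (E227). KD females averaged 325 ± 39.0 (SD, n = 4) and CD females 369 ± 27 (SD, n = 5), with 3 of the 4 KD females below every CD female. The log2 fold change was -0.17 (SE 0.072, 95% interval -0.32 to -0.015, unadjusted p 0.0324), a fold change of 0.891, and the adjusted p was 0.380 in edgeR's quasi-likelihood test.

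Within the library series, the log2 fold change of Ncor1 in females was -0.20 in series 1 and -0.14 in series 2, and leaving out 1 mouse at a time gave -0.20 to -0.13. With the striatal marker score in the model it was -0.20, and without E227 and E249, the mice of each female group that stood apart in striatal markers, it was -0.14. In males Ncor1 was at 308, 347 and 390.0 normalised CPM (lowest, median and highest of 5) on the CD and at 298, 357 and 408 (of 6) on the KD, with a log2 fold change of -0.017 (95% interval -0.15 to 0.12, adjusted p 1.0 in edgeR's quasi-likelihood test). The difference between the sexes in this diet effect was -0.15 (95% interval -0.35 to 0.054, unadjusted p 0.141, adjusted p 1.0).

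Hdac11 (chromosome 6, 91156665 to 91174692, plus strand), which removes long-chain acyl groups as well as acetyl groups, had the next smallest p in females. In CD females it was at 147 (E62), 135 (E67), 141 (E228), 103 (E249) and 98.2 (E265) normalised CPM, and in KD females at 185 (E61), 145 (E68), 121 (E207) and 157.1 (E227). The group means were 152 ± 26.6 (SD, n = 4) on the KD and 125 ± 22.4 (SD, n = 5) on the CD, and the groups overlapped. The log2 fold change was 0.26 (95% interval -0.034 to 0.56, unadjusted p 0.0792, adjusted p 0.515 in edgeR's quasi-likelihood test), with 0.23 in series 1 and 0.29 in series 2. It was 0.41 with the striatal marker score in the model, at an adjusted p of 0.845. In males the log2 fold change of Hdac11 was 0.11 (adjusted p 1.0), from 140 ± 18.1 (SD, n = 5) on the CD to 148 ± 34.7 (SD, n = 6) on the KD, with the highest value of all mice, 216, in KD male E64.

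Hdac1 (chromosome 4, 129516104 to 129542713, minus strand), a class I enzyme, was at 8.95 (E62), 9.61 (E67), 8.78 (E228), 10.8 (E249) and 7.65 (E265) normalised CPM in CD females and at 11 (E61), 12.2 (E68), 9.81 (E207) and 10.4 (E227) in KD females. Its log2 fold change was 0.25 (95% interval -0.066 to 0.56, unadjusted p 0.114, adjusted p 0.584 in edgeR's quasi-likelihood test). CD female E249 lay above 2 of the 4 KD females, so the groups overlapped. In males Hdac1 went from 9.98 ± 1.77 (SD, n = 5) to 10.7 ± 1.39 (SD, n = 6), a log2 fold change of 0.10 (adjusted p 1.0).

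**Figure D3:**
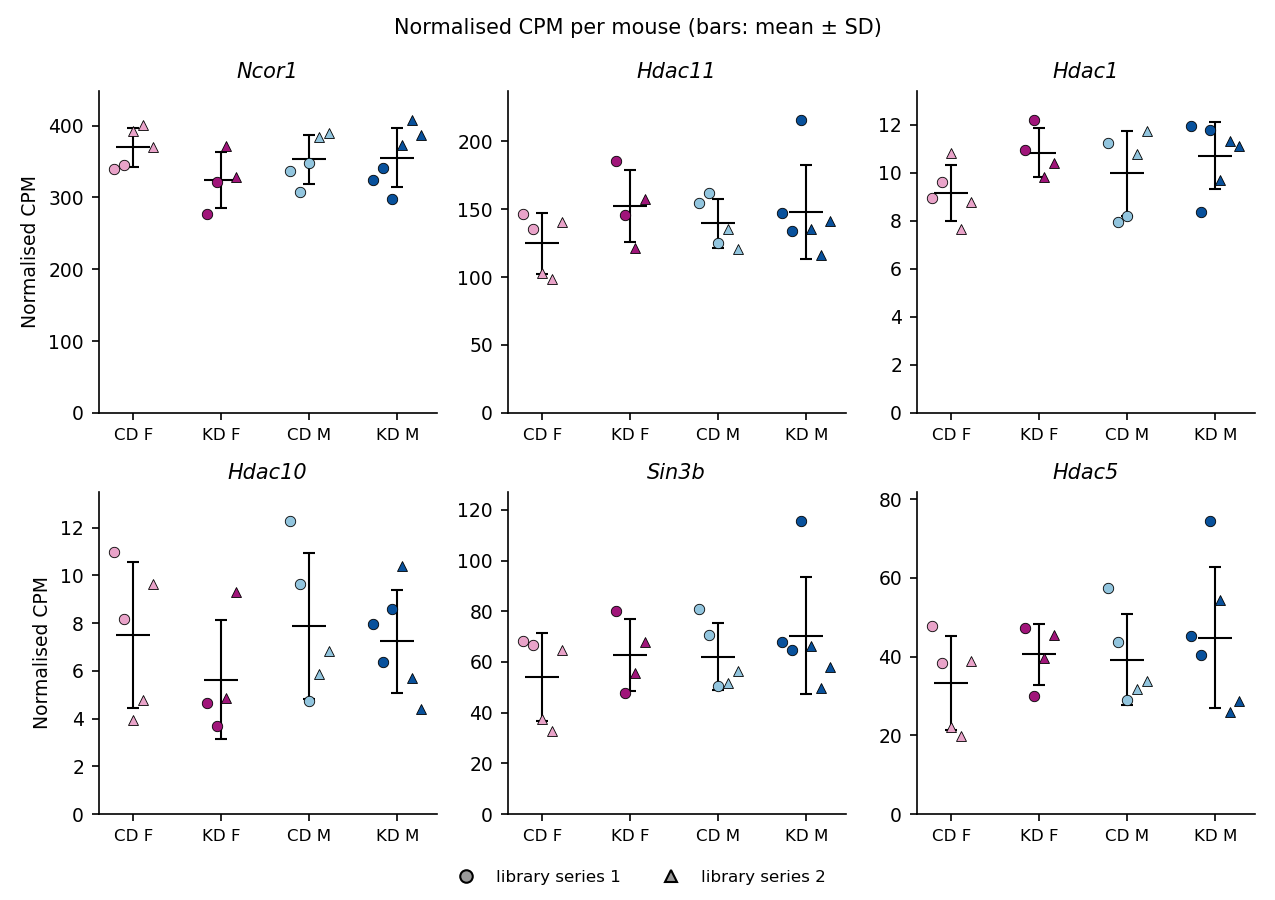
Normalised CPM of 6 genes in each mouse, by group, with circles for library series 1 and triangles for series 2; bars are the mean ± SD of the group (females: 5 CD and 4 KD; males: 5 CD and 6 KD). Ncor1 reaches 277 in a KD female against a lowest CD female of 340.1, KD male E64 stands above the other KD males for Hdac11, Sin3b and Hdac5, and the groups overlap in all 6 panels.

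In males 0 of the 30 genes were called between the diets, as were 0% of all genes tested. At an unadjusted p under 0.05 the count was 0 of 30, against 3.56% of all genes. DESeq2's Wald test also called 0 of the 30, where it called 0% of all genes. It gave 0 of the 30 under that p, and its share of all genes there is not given here. The median log2 fold change was -0.0075, with 13 of the 30 genes higher on the KD, against 49.1% of all genes, and for 25 of the 30 the 95% interval lay within a 1.5-fold change, against 62.6% of all genes. The diets overlapped in males for each of the 30, where 0.102% of all genes were fully higher and 0.14% fully lower on the KD. The smallest p belonged to Sin3b (chromosome 8, 72723285 to 72758201, plus strand), the scaffold of the Sin3b complex. It was at 80.8 (E51), 70.6 (E58), 50.7 (E66), 51.7 (E251) and 56.6 (E264) normalised CPM in CD males, and at 49.9, 65.4 and 116 (lowest, median and highest) in the 6 KD males. The log2 fold change was 0.21 (95% interval -0.20 to 0.62, unadjusted p 0.304, adjusted p 1.0 in edgeR's quasi-likelihood test). Without KD male E64, which holds the highest value, it was 0.046.

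Kat8 (chromosome 7, 127912516 to 127925837, plus strand) was next in males. It was at 20.1 (E51), 21.8 (E58), 20.5 (E66), 19.6 (E251) and 19.3 (E264) normalised CPM in CD males, and at 17.2, 17.9 and 20.6 (lowest, median and highest) in KD males. The groups overlapped, and the log2 fold change was -0.12 (95% interval -0.37 to 0.14, unadjusted p 0.359). Hdac5 (chromosome 11, 102194432 to 102230166, minus strand), the class IIa enzyme that leaves the nucleus on neuronal activity, was at 57.3 (E51), 43.7 (E58), 29.1 (E66), 31.9 (E251) and 33.7 (E264) in CD males and at 25.9, 42.8 and 74.4 (lowest, median and highest) in KD males. Its log2 fold change was 0.23 (95% interval -0.28 to 0.73, unadjusted p 0.363), and 0.061 without E64. In females that of Hdac5 was 0.29 (95% interval -0.28 to 0.85), the largest rise by value among the 30 and short of the 1.5-fold limit.

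Whether the diet effect differed between females and males was tested in the same model. The count was 0 of the 30 called, where 0% of all genes were, and 0 of the 30 at an unadjusted p under 0.05, against 2.14% of all genes. For 18 of the 30 its 95% interval lay within a 1.5-fold change, against 41.3% of all genes. After Ncor1, the smallest p were those of Sirt2 and Hdac8. Sirt2 (chromosome 7, 28766735 to 28788661, plus strand) was at 34.1, 31.6, 28.9, 22.5 and 21.1 normalised CPM in CD females E62, E67, E228, E249 and E265, and at 34.5, 30.3, 29.1 and 29.7 in KD females E61, E68, E207 and E227. In males it was at 22.7, 31.9 and 41.9 (lowest, median and highest) on the CD and at 21.7, 32.2 and 36.2 on the KD. The difference of the diet effects was 0.22 (95% interval -0.14 to 0.57, unadjusted p 0.219), from 0.14 in females and -0.079 in males. The 10 oligodendrocyte markers had the same signs: their median log2 fold change was 0.25 in females, with 10 of 10 higher on the KD, and -0.43 in males, with 0 of 10 higher, and their summed level ran from 3012 to 3629 CPM in CD females, 3574 to 4739 in KD females, 2779 to 4935 in CD males and 1530 to 4397 in KD males. With the oligodendrocyte marker score in the model the difference for Sirt2 was 0.13.

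Hdac8 (chromosome X, 102284639 to 102505359, minus strand), a class I enzyme that acts on cohesin, was at 14.0, 12.0, 13.2, 19.5 and 14.1 normalised CPM in CD females E62, E67, E228, E249 and E265 and at 17.6, 16.9, 16.7 and 14.7 in KD females E61, E68, E207 and E227. CD female E249 was above every KD female, and the other 4 CD females were below all of them. The log2 fold change in females was 0.22 (unadjusted p 0.137) and in males 0.033, with a difference of 0.19 (95% interval -0.21 to 0.59, unadjusted p 0.340).

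Averaged over the sexes, the contrast with the most mice, 0 of the 30 genes were called, against 0.268% of all genes, and 0 were at an unadjusted p under 0.05, against 13.9% of all genes. Hdac11 was nearest, with a log2 fold change of 0.18 (SE 0.095, unadjusted p 0.0678, adjusted p 0.403 in edgeR's quasi-likelihood test), followed by Ncor1 at -0.092 (unadjusted p 0.0733) and Hdac1 at 0.18 (unadjusted p 0.0975). The log2 fold changes of the 6 acetyltransferases ran from -0.11 (Crebbp) to -0.019 (Kat5), with an unadjusted p of at least 0.234.

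Between females and males, averaged over the diets, 0 of the 30 genes were called, against 0.134% of all genes, and 0 had an unadjusted p under 0.05, against 13.6% of all genes. By sign 8 of the 30 were higher in females, beside 50.8% of all genes. Hdac9 had the smallest p, with a log2 difference of 0.19 (females minus males, unadjusted p 0.0641), followed by Hdac4 at -0.28 (unadjusted p 0.0742). Hdac6 and Hdac8 lie on the X chromosome, and both were short of the threshold.

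Hdac10 and Hdac4 depended on which females entered the model, and they were singled out after their values had been seen. Hdac10 (chromosome 15, 89123307 to 89128700, minus strand) was at 11, 8.19, 9.64, 3.94 and 4.76 normalised CPM in CD females E62, E67, E228, E249 and E265 and at 4.65, 3.71, 4.87 and 9.29 in KD females E61, E68, E207 and E227. KD female E227 was at the level of the higher CD females, and CD females E249 and E265 at the level of the lower KD females. With all mice the log2 fold change was -0.41 (95% interval -1.14 to 0.32, adjusted p 0.744 in edgeR's quasi-likelihood test). Without E227 and E249 it was -0.97 (adjusted p 0.0623), and 1953 genes (12.2% of those tested) were then called, Hdac10 being the only one of the 30. In series 1 alone it was -1.20 (unadjusted p 0.0105, adjusted p 0.132) and in series 2 alone 0.21.

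For Hdac4, the log2 fold change in females went from -0.16 with all mice to -0.55 without E227 and E249 (adjusted p 0.0586), a change below 1.5-fold. It was 0.13 with the striatal marker score in the model, and that of Hdac10 was then 0.046. E227 is the KD female without high striatal markers and E249 the CD female with them. E265, the CD female with the lowest striatal sum of all mice, also had low Hdac10 (4.76) and Hdac4 (20.2), and KD male E59, with the highest striatal sum, had Hdac10 at 6.37 and Hdac4 at 27. The part of tissue composition in these values was not tested beyond the marker score.

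More of the 30 genes passed the adjusted threshold between the library series than between the diets. In the same model, the difference between series 2 and series 1, looked at after the other values had been seen, had an adjusted p of at most 0.1 for 12 of the 30 genes, against 33.2% of all genes, and 0 of the 30 were also past 1.5-fold, against 7.24%. Higher in series 2 were Ep300 (log2 difference 0.55, adjusted p 0.000885), Sirt1 (0.34), Crebbp (0.26), Ncor1 (0.23), Hdac8 (0.22) and Sin3a (0.18). Lower in series 2 were Sirt2 (-0.41), Kat2a (-0.40), Sin3b (-0.39), Kat5 (-0.31), Hdac11 (-0.28) and Hdac6 (-0.25). Ep300 was at 39.0 to 64.3 normalised CPM in the 10 mice of series 1 and at 59.5 to 87.0 in those of series 2, so that the series overlapped only slightly, while its diet difference in females was -0.091.

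**Figure D4:**
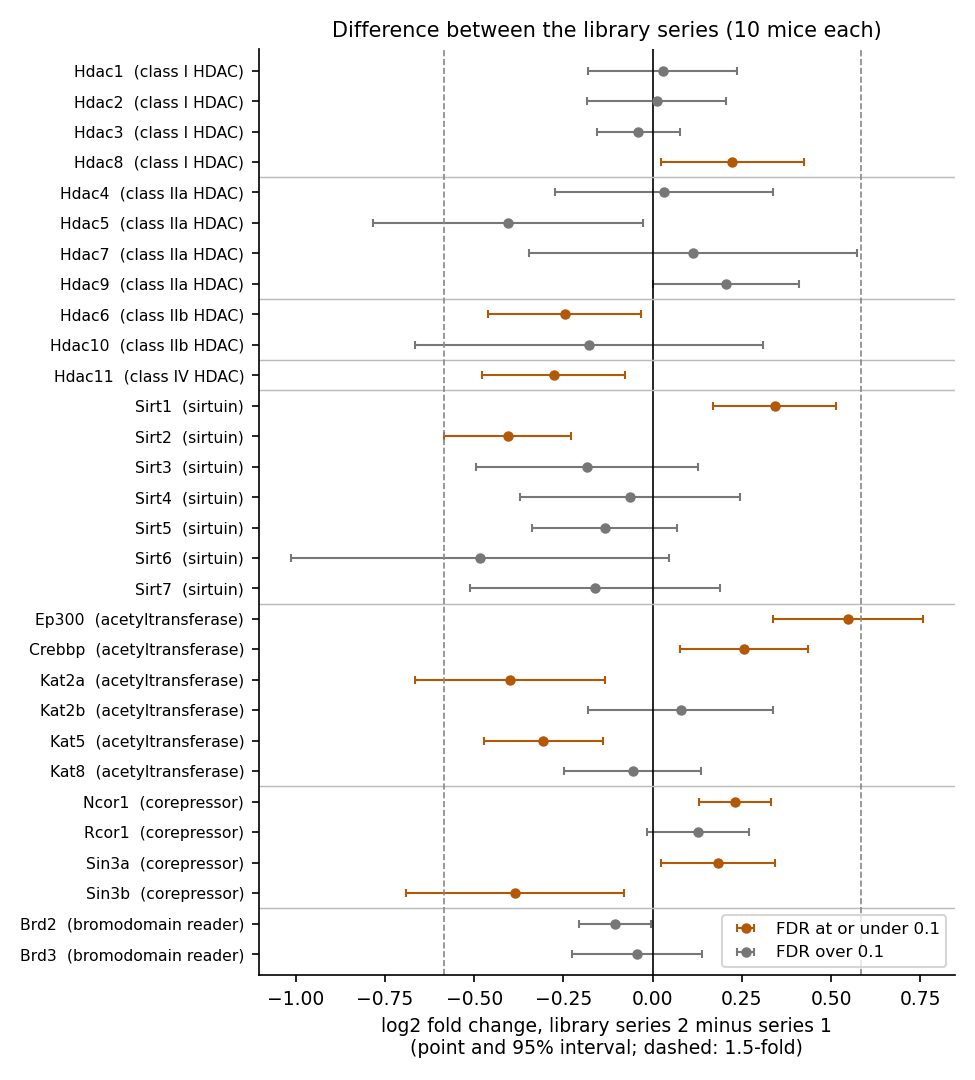
Log2 difference of library series 2 minus series 1 (10 mice each) for each gene, with its 95% interval; dashed lines mark a 1.5-fold change, and colour marks an adjusted p of at most 0.1. Ep300 lies farthest right at 0.55, and 12 genes are coloured, 6 on each side of 0.

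Since every group had mice in both series, the diet difference could be computed within each. In females 21 of the 30 genes had opposite signs in the 2 series, with medians of -0.10 in series 1 (2 CD and 2 KD females) and 0.14 in series 2 (3 CD and 2 KD females), and 55.8% of all genes did so. In males 18 of the 30 had opposite signs, against 47.7% of all genes. Ncor1, Hdac11 and Hdac1 were among the 9 with the same sign in both series in females.

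Single mice also held the highest or lowest value for several of the 30 genes. How often they did so over all genes was not counted. CD male E51 had the highest normalised CPM of all 20 mice for 8 of the 30 genes and KD male E64 for 6, among them Sin3b, Hdac5, Hdac6 and Hdac11. CD female E265 had the lowest for 7 of the 30, among them Hdac1, Hdac5, Hdac11 and Sin3b, and CD female E249 the lowest for 4 and the highest for 5. In E249 Sirt3, Kat2a, Kat5 and Brd2 were the lowest of all mice, and Hdac2, Hdac8, Sirt1, Kat2b and Sin3a the highest. E249 had the fewest counts of the 20 libraries, 12207161. It also had the lowest sum of cortical excitatory neuron markers, 752 CPM, and 1208 CPM of striatal markers. The parts of depth and of tissue composition in this pattern were not tested.

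**Figure D5:**
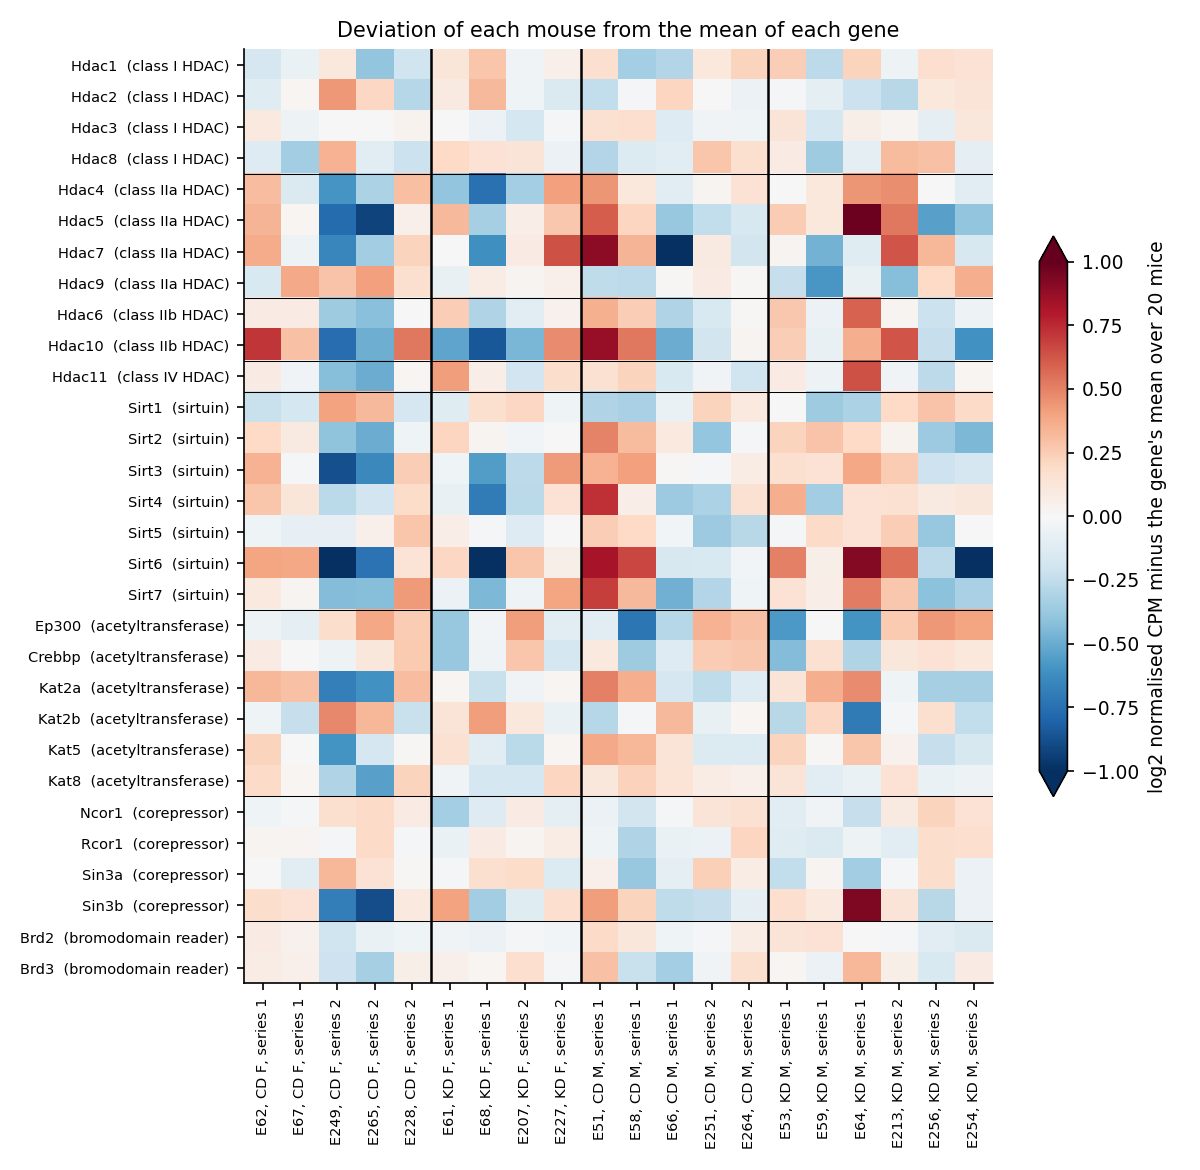
Log2 normalised CPM of each gene in each mouse minus the mean of that gene over the 20 mice; columns are mice ordered by group and then library series, rows are genes by class, and the colour scale is cut at 1 in both directions. E249 and E265 are low, and E51 and E64 high, for Hdac5, Sirt6, Kat2a and Sin3b, within groups that differ in diet or sex.

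Of 88 further genes of the same machinery (other acetyltransferases, corepressor and acetyltransferase complex subunits, acetyl-lysine readers and acetyl-CoA supply), 0 were called in females or in males. At an unadjusted p under 0.05 the count was 5 of 88 in females, 4 higher and 1 lower on the KD, and 1 of 88 in males, against 11.4% and 3.56% of all genes. Higher in value on the KD in females were 3 genes of acetyl-CoA supply: Slc25a1, the mitochondrial citrate exporter (log2 fold change 0.50, unadjusted p 0.00588), Acly, which cleaves citrate to acetyl-CoA in cytosol and nucleus (0.29, unadjusted p 0.0199), and Acss1, the mitochondrial acetyl-CoA synthetase (0.27, unadjusted p 0.0368). With them was Ing5, a subunit of Kat6 and Kat7 complexes (0.20), and lower was Tada2a, the adaptor of Kat2a complexes (-0.23). With the striatal marker score in the model, Acly was at 0.11 and Tada2a at -0.075. None of the 5 had an adjusted p of at most 0.1 (the smallest was 0.239, for Slc25a1, in edgeR's quasi-likelihood test).

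Slc25a1 was at 13.5 ± 3.04 normalised CPM in CD females (SD, n = 5) and 19.7 ± 3.57 in KD females (SD, n = 4), and at 14.5 ± 3.35 and 15 ± 3.44 in CD and KD males (SD, n = 5 and 6). The difference of its diet effect between the sexes was 0.40 (unadjusted p 0.0769), that of Tada2a -0.24 (unadjusted p 0.0928) and that of Ing5 0.19 (unadjusted p 0.119). Acss2, the acetyl-CoA synthetase of nucleus and cytosol, was lower in value on the KD by 0.20 in each sex (log2 fold change -0.20, unadjusted p 0.0969 in females and 0.0703 in males). Averaged over the sexes, Acss1 (0.22), Slc25a1 (0.29), Chd3 (0.33), Acss2 (-0.20) and Acly (0.20) were the 5 of 88 (5.68%) with an unadjusted p under 0.05, against 13.9% of all genes, with the smallest adjusted p at 0.214. Acss1 was at 0.34 in series 1 alone and 0.10 in series 2 alone. In males the one gene at that level was Chd3, a remodeller of the NuRD complex (0.35, unadjusted p 0.0479; 0.18 without KD male E64, 0.16 in series 2 alone and 0.092 with the oligodendrocyte marker score), and next came Acss2 and the reader Brd8 (-0.11, unadjusted p 0.128). Acss2 in males was at -0.083 in series 2 alone and -0.11 with the oligodendrocyte marker score. In females the median log2 fold change of the 6 genes of acetyl-CoA supply was 0.22 and that of the 88 genes -0.032.

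A further 6 genes have been described as rising when BHB inhibits deacetylases: Foxo3, the metallothioneins Mt1 and Mt2, the neurotrophin Bdnf, catalase (Cat) and the mitochondrial superoxide dismutase Sod2. In females 0 of the 6 were called and 1, Bdnf, had an unadjusted p under 0.05. Bdnf was at 58 ± 15.1 normalised CPM in CD females (SD, n = 5) and 36.7 ± 7.21 in KD females (SD, n = 4), a log2 fold change of -0.66 (SE 0.26, unadjusted p 0.0218, adjusted p 0.340 in edgeR's quasi-likelihood test), in the direction opposite to the name of the list. With the striatal marker score in the model that value was -0.0055, and the part of tissue composition in it was not tested further. In males Bdnf was at 67.5 ± 11.6 (SD, n = 5) and 66.1 ± 25.0 (SD, n = 6), with a log2 fold change of -0.031.

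The other 5 differed little between the diets: in females Foxo3 had a log2 fold change of -0.093, Mt1 0.074, Mt2 0.12, Cat 0.071 and Sod2 -0.037, and in males -0.014, 0.0070, 0.095, 0.11 and -0.12. None of these 10 had an unadjusted p under 0.05.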

How the data were processed

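RNA-seq of the cortex of 20 mice was used, 1 library per mouse, grouped by the sample labels, where the labels' SD is the control diet. Total RNA libraries were stranded and read as pairs. The authors aligned reads to mm10 with STAR and deposited raw counts per gene, made with the HTSeq counting built into STAR; the version and the strand counted are not given in the sources used here. The library series was read from the library numbers. The 30 genes and all further lists were chosen with earlier results of these data known.

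From the deposited counts, edgeR 4.0.16 (R 4.3.3) was run on the 15660 genes that passed filterByExpr, with upper-quartile normalization and a model of the 4 groups plus library series. The quasi-likelihood test used robust dispersions. Normalised CPM used the upper-quartile library sizes. Exon lengths and coordinates came from GENCODE vM21 (GRCm38, the same build as mm10), which held 21742 of the 23413 names. The 5 list genes under older symbols were matched through RefSeq. All 30 genes are given by level; those with an unadjusted p under 0.05, and at least the 3 of smallest p in each diet contrast, are given in full, as are the further genes called (otherwise the 3 of smallest p in each diet contrast) and the whole BHB list. Alternatives were TMM, DESeq2's size factors and Wald test (DESeq2 1.42.0), other count filters, no series term, RUVg with 1 or 2 factors (rewritten here, sparing the 5000 genes of smallest p), each sex or series alone, the likelihood ratio test, marker scores as covariates, other thresholds and each mouse left out. The study's RUVg settings are not given in the sources used here, so RUVg was not in the model used. The scripts were tested on simulated counts. Totals of at least 12207161 counts set the precision of low counts.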

Additional observations from a re-analysis of the deposited data

Results flagged for a closer look

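A single mouse stood apart from the others of its group in 2 of the 120 sets of values examined (30 genes in 4 groups), by the gap between the extreme mouse and its nearest neighbour as a share of the whole range of the group, both on the log2 scale. Chance alone gives about 1 such set in 20, or 6 here. Rcor1, the CoREST scaffold, had a gap share of 0.763 in CD females, where E265 was at 17.7 normalised CPM and the other 4 at 15.2 to 15.8. Sin3b had a gap share of 0.634 in KD males, where E64 was at 116 normalised CPM and the other 5 at 49.9 to 67.9. E64 was also the highest of all 20 mice for 6 of the 30 genes, a count that was not made over all genes.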

How the results depend on the processing

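Of the 30 genes, 0 were called in males, between the sexes, averaged over the sexes or for the difference of the diet effects under any alternative, and 1 (Hdac10) was called in females in 1 of 35 alternative fits, the one without E227 and E249. The share of all genes called was 0% in males in every fit. Without E227 and E249 it reached 7.83% averaged over the sexes and 3.56% for the difference of the diet effects. Between the sexes it reached 5.1%, without E227. In series 1 alone, and without E249 or E227 alone, 0 of the 30 were called, against 5.42%, 6.66% and 5.68% of all genes. The count at an unadjusted p under 0.05 in females ran from 0 to 4 over the settings and from 0 to 3 with 1 mouse left out. With all mice in the model used, 11.4% of all genes were under that p, and the share in each alternative is not given here. No value of Ncor1, Hdac11 or Hdac1 in females changed sign. Without E227 and E249, 3 of the 88 further genes (Rcor2, Brd9 and Slc25a1) and 1 of the 6 BHB genes (Bdnf) were called in females, and 1 of the 88 (Brd9) for the difference of the diet effects. The share of all genes called was then 12.2% in females and 3.56% for that difference. With 1 mouse left out, the count in females was 0 to 1 of the 88 (Brd9 without E227) and 0 to 1 of the 6 (Bdnf without E249), and between the sexes 0 to 1 of the 6 (Bdnf without E59 or without E227). The share of all genes called in females was 5.68% without E227 and 6.66% without E249. Between the sexes it was 1.32% without E59 and 5.1% without E227. Over all genes, 7 were called in females with all mice, 253 by DESeq2's Wald test and 1953 without E227 and E249. The causes were not tested.

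Of the 3 genes of smallest p among the 30 and among the 88 in each diet contrast, none changed sign under the alternatives, whereas Hdac10 and Hdac4 in females did, as given above. Both were among the 21 of the 30 genes with opposite signs in the 2 series in females, against 55.8% of all genes. In males 18 of the 30 had opposite signs, against 47.7% of all genes. These genes of the BHB list changed sign as well. In females Foxo3 was 0.27 in series 2 alone and 0.12 with the striatal score, Cat -0.10 in both of these, Mt1 -0.015 without E227 and E249, and Sod2 0.0022 in series 1 alone and 0.0051 without E227 and E249. In males Foxo3 was 0.024 in series 1 alone, 0.033 with the striatal score and 0.069 with the oligodendrocyte score, Mt1 -0.011 with RUVg and 1 factor, -0.36 in series 2 alone and -0.12 with the oligodendrocyte score, Mt2 -0.55 in series 2 alone and -0.14 with the oligodendrocyte score, and Bdnf 0.033 with the striatal score and 0.00071 with the oligodendrocyte score. With 1 mouse left out, Foxo3 ran from -0.25 to 0.073 and Cat from -0.017 to 0.17 in females, and in males Foxo3 ran from -0.076 to 0.053, Mt1 from -0.16 to 0.099, Mt2 from -0.16 to 0.22 and Bdnf from -0.21 to 0.11.

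No paired analysis was possible because replicates are single animals that share no number between groups. Counting error was largest in Sirt6, Hdac7, Sirt4 and Hdac10.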
